A study of Mus musculus with 6 samples.

Results

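The genes described here are the TGF-beta ligands, receptors and Smads of the mouse, the pathway of the receptor that was deleted in the squamous cell carcinoma cells of the study (SCCc). The 10 members are the ligands *Tgfb1*, *Tgfb2* and *Tgfb3*, the receptors *Tgfbr1*, *Tgfbr2* and *Tgfbr3*, and *Smad2*, *Smad3*, *Smad4* and *Smad7*. They were chosen by name. Each was found in a row of its own among the 23698 gene rows counted, and none of the 204 rows that join several gene names held a member. By their labels the cells carry HrasG12V, an activated form of the Ras GTPase, and lack Tgfbr2 through a floxed allele (Tgfbr2 fl/fl KO). The labels describe primary keratinocytes of back skin at postnatal day 0, used at passage 10 to 15. The study describes a previously generated cell line, obtained from a tumor allograft model that was established earlier. The driver of the Cre recombinase and the clonality of the line are not given in the sources used here. All 3 libraries used are labelled with both modifications, 1 library of ribosome profiling and 2 replicate libraries of short-read RNA-seq, so no value below compares SCCc with wild-type cells. Whether the RNA-seq replicates came from separate cultures is not given, so their spread may be technical.

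TGF-beta ligands are secreted in a latent form and, once released, bind the type II receptor Tgfbr2, which recruits and phosphorylates the type I receptor Tgfbr1. The activated type I receptor phosphorylates Smad2 and Smad3, which join Smad4 and enter the nucleus to regulate transcription, while Smad7 binds the receptor and dampens the signal. In the epidermis the pathway restrains the division of keratinocytes, and mouse skin that loses it in the presence of activated Ras is prone to squamous cell carcinoma.

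Ribosome profiling sequences the mRNA fragments covered by ribosomes, called footprints, and RNA-seq gives the abundance of the mRNA. The authors counted the reads of every gene over its exons, its coding sequence (CDS), its 5′UTR and its 3′UTR, and the counts need not be whole numbers. Exon counts came to 3549555 footprints, and to 10707930 reads for replicate 1 and 14003713 for replicate 2 of RNA-seq. The members together held 1386 of these footprints and 10008 and 12915 of the RNA-seq counts. Levels are given as RPKM, the counts divided by the counted length of the region in kilobases and by the library's exon counts in units of 1e+06. RNA-seq levels were taken over exons, with the SD over the 2 replicates, and footprint levels over the CDS, with an exact Poisson 95% interval. These intervals and the limits given for a count of 0 cover counting error only. The files hold 1 ribosome profiling library of SCCc, and the other such libraries that the study took from an earlier series were not available here.

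The libraries carried the markers of keratinocytes. All 8 markers listed for this cell type passed the filters on low counts, with *Krt5* the most abundant at 186784 and 290816 RNA-seq counts, and they summed to 32364 and 36452 CPM (counts per 1e+06 exon counts) in the RNA-seq replicates. The 7 fibroblast markers summed to 45.9 and 75.3 CPM, with *Col3a1* the most abundant at 232 and 428 counts. Melanocyte markers summed to 11.6 and 12.6 CPM, leukocyte markers to 4.73 and 15.0, and endothelial markers to 2.44 and 2.96, and *Cd3e* was at 0 in all 3 libraries.

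The members spanned the range from abundant to nearly absent. *Tgfb1*, *Tgfbr2* and *Smad4* had the highest mRNA levels, between 46.3 and 66.9 RPKM in each replicate, where the median of the 9863 genes that passed the filters was 15.3 RPKM. *Tgfb2* and *Tgfb3* had fewer than 10 RNA-seq counts in each replicate and no footprint on the CDS. The filters asked for more than 1 RPKM in both RNA-seq libraries, a mean normalised count above 25 and footprints on a counted CDS, and 8 of the 10 members passed. Between the RNA-seq replicates, the log2 difference (replicate 2 minus 1) varied with an SD of 0.20 over all passing genes. Of the members, *Tgfbr1* (-0.24) and *Tgfb2* (-0.75) differed by more than that.

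**Figure D1:**
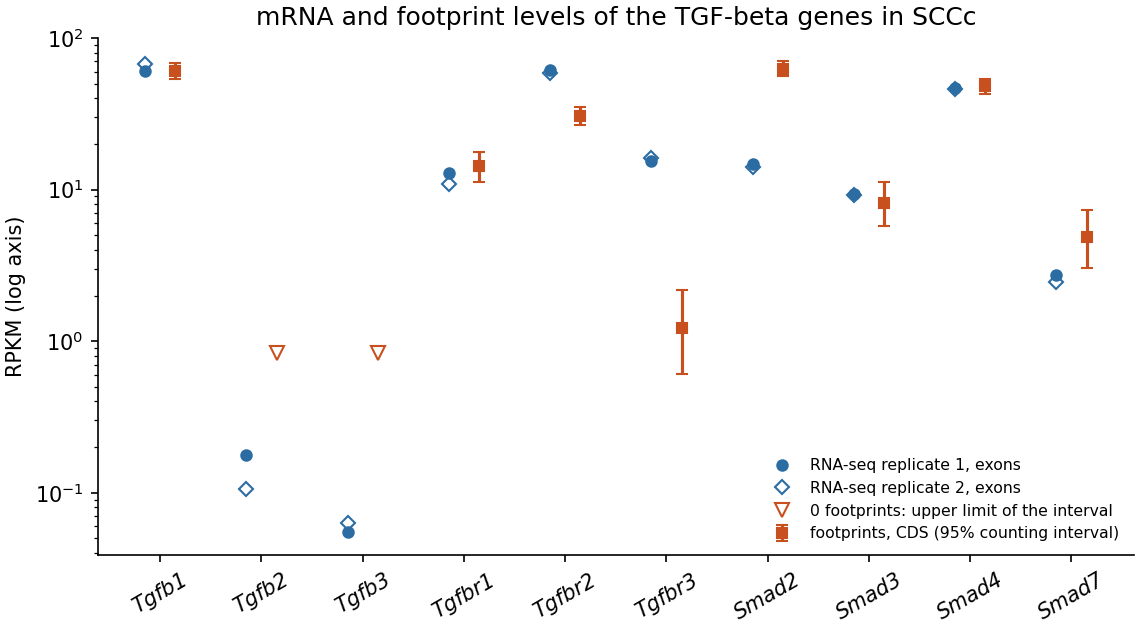
RPKM on a log axis for the 10 members, with RNA-seq on exons as blue points for each replicate and footprints on the CDS as orange squares with 95% counting intervals. Open triangles mark the upper limit for the 2 members with 0 footprints, and *Tgfbr3* stands out with 15.3 and 16.2 RPKM of mRNA beside 1.22 RPKM of footprints.

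Reads of the deleted receptor gene itself were abundant. *Tgfbr2* had 3150 and 3958 RNA-seq counts over 4788 nt of exons, 61.4 and 59.0 RPKM, and its mean of 60.2 ± 1.70 RPKM (SD, n = 2) lay at percentile 87.0 of the passing genes. On its CDS of 1776 nt there were 193 footprints, 30.7 RPKM with an interval from 26.4 to 35.3. Counts over whole regions do not show which exons are missing from an mRNA, and the floxed exon is not named in the sources used here, so the deletion can be read neither from the mRNA nor from the footprints. The values say that RNA and footprints were assigned to the gene, not that a receptor was made.

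In GENCODE M21, an annotation of GRCm38, which is the build of the authors' alignment, *Tgfbr2* spans positions 116084293 to 116175360 of chromosome 9 (- strand), with 2 annotated transcripts. The start sites of 5 passing members are shown because ribosomes begin the CDS there. *Smad2*, *Smad4* and *Smad7* lie on chromosome 18, from which no sequence is printed. Each sequence runs from 6 bases before the start codon to the base after it and was read from the annotated transcript with the longest CDS. Capitals mark the start codon.
Tgfbr2: gctgccATGg
Tgfbr1: gggaccATGg
Tgfbr3: ggagagATGg
Tgfb1: tcccccATGc
Smad3: ccagccATGt
The start codons lie at chr9:116175035-116175037 on the - strand for *Tgfbr2*, chr4:47353312-47353314 on the + strand for *Tgfbr1*, chr5:107266258-107266260 on the - strand for *Tgfbr3*, chr7:25687869-25687871 on the + strand for *Tgfb1* and chr9:63757675-63757677 on the - strand for *Smad3*. A purine at position -3 together with G at position 4, counted from the A of the start codon, is the usual form of a strong Kozak context. Of the 10 members, the 3 receptors have both and the ligands and Smads do not. Both features were present in 46.7% of the 9344 passing genes that could be matched to the annotation by name.

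*Tgfbr1*, the type I receptor that carries the signal to the Smads, had 774 and 859 RNA-seq counts over 5666 nt of exons. Its mRNA level of 11.8 ± 1.37 RPKM (SD, n = 2) came from 12.8 RPKM in replicate 1 and 10.8 in replicate 2. The 76.1 footprints on its CDS of 1509 nt gave 14.2 RPKM, with an interval from 11.2 to 17.8. Of the signalling receptors, *Tgfbr1* had the lower mRNA level, and the counting intervals of its footprints and those of *Tgfbr2* did not overlap. The gene spans positions 47353222 to 47414931 of chromosome 4 (+ strand).

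*Tgfbr3*, the co-receptor betaglycan that presents ligand to the signalling receptors, had mRNA but few footprints. RNA-seq gave 994 and 1377 counts on its 6053 nt of exons, 15.3 and 16.2 RPKM, or 15.8 ± 0.641 RPKM (SD, n = 2). On a CDS of 2550 nt, the longest of the members, 11 footprints were counted, 1.22 RPKM with an interval from 0.607 to 2.17. The mRNA level was thus near the median of all passing genes while the footprint level was far below their median of 19.1 RPKM. Both the CDS and the 3′UTR carried RNA-seq reads, with 409 and 605 counts on the CDS and 560 and 728 on the 3′UTR. *Tgfbr3* spans positions 107106570 to 107289629 of chromosome 5 (- strand), and 297 nt of its exons, 4.54%, are shared with *Gm43422*, an unclassified gene model on the same strand, from which its reads cannot be told apart there.

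In bulk libraries, a few cells with much of an mRNA and many cells with little cannot be told apart. The markers of other cell types are therefore given beside *Tgfbr3*. The 7 fibroblast markers held 491 and 1055 RNA-seq counts and 10 footprints on the CDS, all on *Pdgfra* beside 17.5 and 41.4 RNA-seq counts. *Col1a1* (102 and 276 RNA-seq counts), *Col1a2* (126 and 284), *Col3a1* (232 and 428), *Pdgfrb*, *Lum* and *Thy1* had 0 footprints on the CDS. The melanocyte markers held 125 and 176 RNA-seq counts and 8 CDS footprints, of which *Pmel* had 2 beside 115 and 155 RNA-seq counts, *Mitf* 4 beside 3.95 and 12.4, and *Sox10* 2 beside 1 and 0. *Pmel* alone of these markers passed the filters on low counts, with a log2 translational efficiency (defined below) of -4.43. Most of its RNA-seq counts, 82.7 and 111, lay on its 3′UTR of 224 nt, beside 31.7 and 43.0 on its CDS of 1878 nt. Whether these 3′UTR reads are its own was not tested. The leukocyte markers held 50.7 and 210 RNA-seq counts, most on *Lyz2* (30.7 and 127), and 0 CDS footprints, and the endothelial markers 26.1 and 41.5 with 13 CDS footprints, all on *Kdr* (20.1 and 24.5 RNA-seq counts). The more abundant of these markers thus had few or no CDS footprints beside their RNA-seq counts, as *Tgfbr3* had. *Pdgfra*, *Mitf*, *Sox10* and *Kdr* went the other way, with more footprints beside their RNA-seq counts. All these values rest on small footprint counts, with 10 on *Pdgfra* and 13 on *Kdr* beside 11 on *Tgfbr3*. The log2 ratio of replicate 2 to replicate 1 was 0.72 for the sum of the fibroblast markers, 1.66 for leukocyte, 0.28 for endothelial and 0.11 for melanocyte markers, and 0.08 for *Tgfbr3*. The part of mRNA from other cells in the *Tgfbr3* values was not tested.

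Of the ligands, only *Tgfb1* was measured at a level that allows a comparison. It had 1350 and 1962 RNA-seq counts over 2094 nt of exons, 60.2 and 66.9 RPKM, with a mean of 63.6 ± 4.73 RPKM (SD, n = 2) at percentile 87.8 of the passing genes. Its CDS of 1170 nt held 252 footprints, 60.7 RPKM with an interval from 53.4 to 68.7. *Tgfb1* spans positions 25687002 to 25705077 of chromosome 7 (+ strand).

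*Tgfb2* had 9 and 7 RNA-seq counts, 0.178 and 0.106 RPKM, and *Tgfb3* had 2 and 3 counts, 0.0552 and 0.0633 RPKM. Neither had a footprint on its CDS, and the exact Poisson interval of a count of 0 reaches 0.837 RPKM for *Tgfb2* and 0.841 RPKM for *Tgfb3*. The mRNA levels lie below those limits, so the absence of footprints on both genes says nothing of their translation at this depth. *Tgfb2* spans positions 186622792 to 186705989 of chromosome 1 (- strand) and *Tgfb3* positions 86056745 to 86079041 of chromosome 12 (- strand). Both overlap gene models on the opposite strand, *Gm29491* at *Tgfb2* and *Gm37804* and *Gm48008* at *Tgfb3*, and the strand setting of the counting is not given, so even these few reads may not be their own.

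The receptor-regulated Smads differed in their footprints more than in their mRNA counted over exons. *Smad2* had 1424 and 1770 RNA-seq counts over 9009 nt of exons, 14.8 and 14.0 RPKM, and *Smad3* had 508 and 659 counts on 5090 nt, 9.32 and 9.25 RPKM. On the CDS, *Smad2* held 312 footprints on 1401 nt, 62.8 RPKM with an interval from 55.97 to 70.1. *Smad3* held 37 footprints on 1275 nt, 8.18 RPKM with an interval from 5.76 to 11.3. *Smad2* had the highest footprint level of all members and an mRNA level at percentile 47.8 of the passing genes. Over the CDS alone, however, the RNA-seq density was 52.9 and 51.3 RPKM for *Smad2* and 8.93 and 9.97 RPKM for *Smad3*, so the difference in mRNA depends on the region counted. In the annotation *Smad2* spans positions 76241580 to 76310963 of chromosome 18 (+ strand) and *Smad3* positions 63646767 to 63757994 of chromosome 9 (- strand).

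*Smad4*, the common partner of both, had an even mRNA level in the replicates, with 1667 and 2167 counts on 3341 nt of exons and 46.6 and 46.3 RPKM. Its 281 footprints on 1653 nt of CDS gave 47.8 RPKM, with an interval from 42.5 to 53.8. *Smad7*, the inhibitor and itself a transcriptional target of the pathway, was the least abundant of the passing members at 129 and 153 counts on 4432 nt, 2.72 and 2.46 RPKM. The 22 footprints on its CDS of 1278 nt gave 4.85 RPKM, with an interval from 3.04 to 7.34. Both genes lie on chromosome 18, *Smad4* on the - strand from 73639009 to 73703780 and *Smad7* on the + strand from 75367529 to 75395935.

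Ordered by mRNA level, the members ran from *Tgfb1* and *Tgfbr2*, whose replicate ranges overlapped, through *Smad4*, *Tgfbr3*, *Smad2*, *Tgfbr1*, *Smad3* and *Smad7* to *Tgfb2* and *Tgfb3*. No other neighbours in this order had overlapping replicate ranges. This order holds for exons only. Over the CDS, the RNA-seq densities of *Smad4* (55.7 and 57.1 RPKM) and *Smad2* both exceeded that of *Tgfbr2* (43.8 and 47.5 RPKM) in each replicate, and *Tgfbr1* (11.8 and 8.74 RPKM) overlapped *Smad3*. Ordered by footprint level, *Smad2*, *Tgfb1* and *Smad4* came highest, and the counting intervals of neighbours among them overlapped. They were followed by *Tgfbr2*, then by *Tgfbr1*, *Smad3* and *Smad7* with overlapping neighbours, and by *Tgfbr3*.

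Translational efficiency was the footprint RPKM on the CDS divided by the mean RNA-seq RPKM on exons, on the log2 scale and relative to the median of the 9863 passing genes. Among the 8 members that passed, 1 lay above 1 (*Smad2*) and 2 lay below -1 (*Tgfbr2* and *Tgfbr3*), with 5 between these limits. Of all passing genes, 20.8% lay above 1 and 21.1% below -1, so the counts of the members are near those shares and do not set them apart. The median of the 8 members was -0.36, beside 0 for all passing genes by definition. Single genes varied with an SD of 1.45, which is not the spread of a median of 8 genes.

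**Figure D2:**
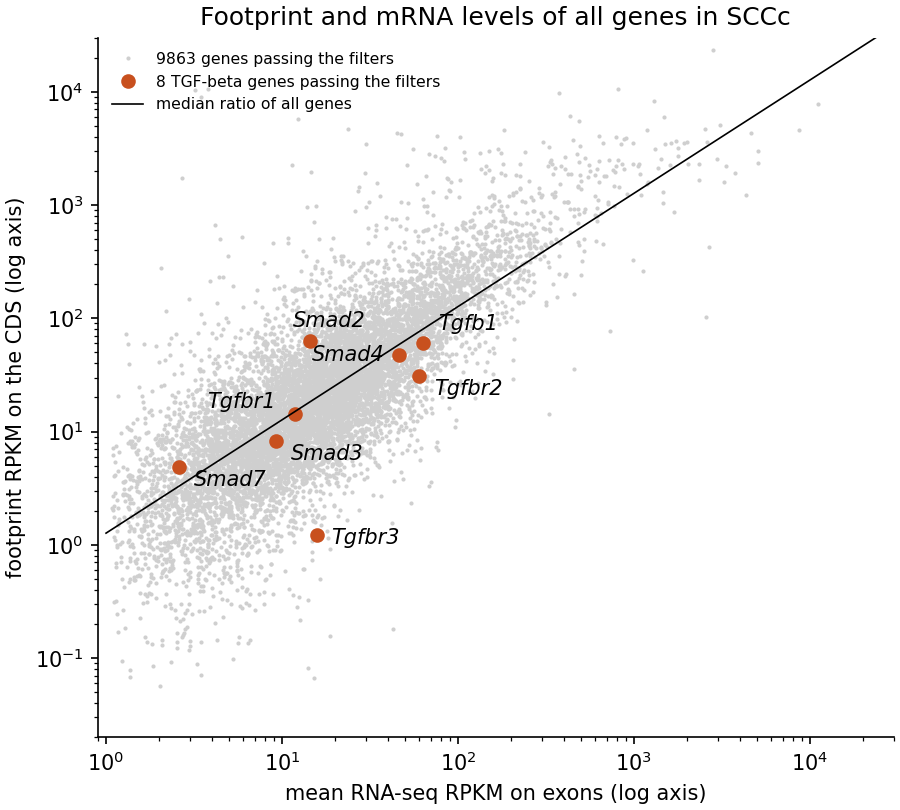
Footprint RPKM on the CDS against mean RNA-seq RPKM on exons, both on log axes, for the 9863 passing genes in grey and the 8 passing members in orange. The line is the median ratio of all genes, and *Smad2* lies above it while *Tgfbr2* and *Tgfbr3* lie below it.

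*Smad2* had a log2 translational efficiency of 1.78 ± 0.04 (SD over the RNA-seq replicates, n = 2), with an exact Clopper-Pearson counting interval from 1.61 to 1.95, at percentile 91.5 of the passing genes. This value depends on the region of the RNA-seq counts. With RNA-seq counted over the CDS, as footprints are, it was 0.22. Its exons include a 3′UTR of 6887 nt, where the RNA-seq density was lower than on the CDS.

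*Tgfbr2* was at -1.32 ± 0.03 (SD, n = 2), with a counting interval from -1.53 to -1.11, at percentile 15.7. With RNA-seq counted over the CDS it was -0.62, no longer past -1. *Tgfbr3* was the lowest at -4.04 ± 0.07 (SD, n = 2), with a counting interval from -5.05 to -3.20, at percentile 0.842 of the passing genes, and at -3.76 with RNA-seq counted over the CDS. This counting interval overlapped that of no other passing member. With RNA-seq counted over the CDS, 0 members lay above 1 and 1 below -1, beside 18.3% and 19.5% of the 9862 genes with a value.

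The remaining members lay between -1 and 1. *Smad7* was at 0.56 (interval from -0.14 to 1.19), *Tgfbr1* at -0.07 (from -0.42 to 0.26), *Smad4* at -0.30 (from -0.48 to -0.13), *Tgfb1* at -0.41 (from -0.60 to -0.22) and *Smad3* at -0.53 (from -1.04 to -0.05). The intervals of neighbours in this order overlapped, and those of *Smad7* and *Tgfbr1* included 0. With RNA-seq counted over the CDS, *Tgfbr1* was at 0.42, above its interval over exons, and was the highest member, followed by *Smad7* at 0.33. With counts not divided by length, *Smad3* was at -1.51, past -1, *Tgfbr1* was at -0.97 and *Smad7* turned to -0.22. *Smad2* and *Smad3*, which carry the same signal, differed with intervals far apart over exons, and were at 0.22 and -0.26 with RNA-seq counted over the CDS.

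**Figure D3:**
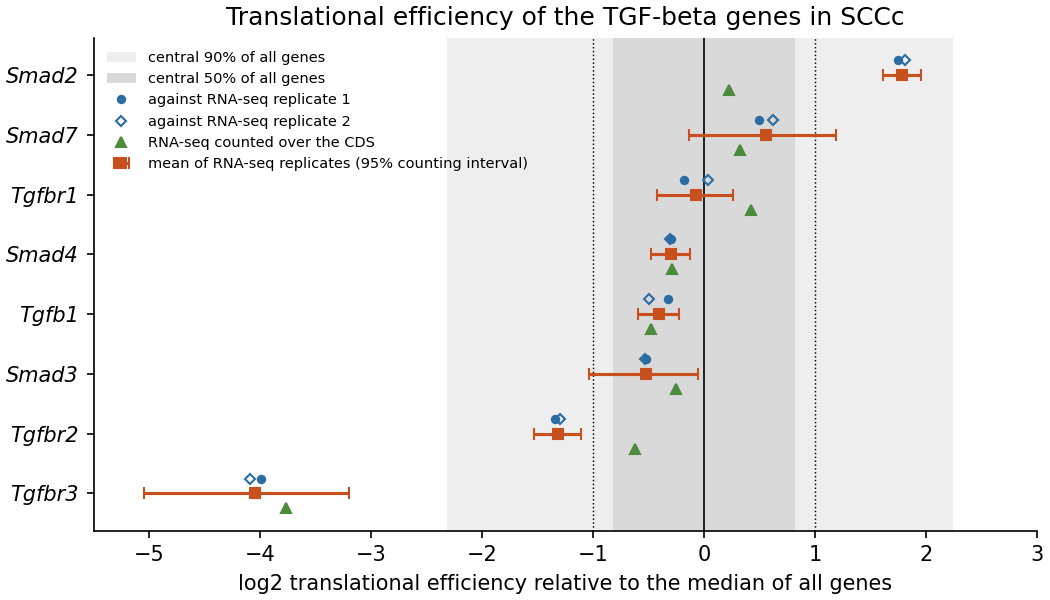
Log2 translational efficiency of the 8 passing members relative to the median of all genes, as orange squares with 95% counting intervals, with blue points for each RNA-seq replicate and green triangles for RNA-seq counted over the CDS. Grey bands hold the central 90% (from -2.31 to 2.25) and the central 50% (from -0.82 to 0.82) of the 9863 passing genes, and only *Tgfbr3* lies outside the wider band.

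Reads were also counted over the UTRs. In ribosome profiling, 90.1% of the exon counts of all genes lay on CDS, 4.50% on 5′UTRs and 1.84% on 3′UTRs. In RNA-seq, CDS held 67.3% and 68.7%, 5′UTRs 3.48% and 4.03% and 3′UTRs 27.2% and 25.2%. The Clopper-Pearson intervals of these shares were at most 0.0621 percentage points wide.

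Among members with at least 10 footprints on both the 5′UTR and the CDS, *Smad7* had the most on the 5′UTR relative to the CDS. Of its 59.7 footprints on exons, 37.7 lay on the 5′UTR of 1590 nt, 63.2% with an exact Clopper-Pearson interval from 49.9% to 75.4%. Per length, the footprint density was 6.68 RPKM on the 5′UTR and 4.85 on the CDS, a log2 ratio of 0.46 with an interval from -0.33 to 1.29. The RNA-seq density ran the other way, with 1.14 and 1.07 RPKM on the 5′UTR and 3.71 and 3.77 on the CDS. The annotated 5′UTR of *Smad7* is 1427 nt long and holds 6 upstream ATG triplets in the direction of the mRNA.

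Of the 5 members with at least 10 footprints on both regions, 1 (*Smad7*) had denser footprints on the 5′UTR than on its CDS, as did 24.9% of the 3138 genes that met this limit. Its counting interval includes 0, so that the direction is not settled at this depth. *Tgfbr2* had the next highest ratio, with 31.3 footprints on a counted 5′UTR of 326 nt. Its footprint density of 27.1 RPKM there was close to the 30.7 RPKM on its CDS, a log2 ratio of -0.18 with an interval from -0.78 to 0.37, at percentile 70.7 of the genes compared. RNA-seq reads on the same 326 nt were few and uneven, with 4.74 counts in replicate 1 and 27.2 in replicate 2, or 1.36 and 5.95 RPKM beside 43.8 and 47.5 RPKM on the CDS.

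In *Smad4*, *Tgfb1* and *Smad2* footprints were sparser on the 5′UTR than along the CDS. For *Smad4* the log2 ratio was -0.91 (interval from -1.42 to -0.43) from 39.8 footprints on 440 nt, the same as the median of -0.91 over the genes compared. For *Tgfb1* it was -2.22 (from -2.74 to -1.74), although 40.0 footprints lay on its 867 nt of 5′UTR. *Tgfb1* also had the highest RNA-seq density on the 5′UTR among the members, 37.5 and 48.7 RPKM beside 80.0 and 83.7 on the CDS. For *Smad2* the log2 ratio was -3.36 (from -4.19 to -2.64), at percentile 3.98, from 15.6 footprints on 721 nt.

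The other members had fewer than 10 footprints on the 5′UTR. *Smad3* had 7 on 317 nt, 6.22 RPKM beside 8.18 RPKM on the CDS, while RNA-seq placed 0 and 2.30 counts there. *Tgfbr3* had 1 on 431 nt, with 24.2 and 44.0 RNA-seq counts. *Tgfbr1* had 0.672 on the 7 nt of 5′UTR that were counted, although its annotated 5′UTR is 90 nt long. *Tgfb2* had 1, its only footprint on any exon, and *Tgfb3* had 0.

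The annotated 5′UTRs of the members are long. The median over the 9344 matched genes was 173 nt, and of the members only *Tgfbr1* was shorter. *Tgfbr2* has 228 nt, *Smad3* 317, *Smad2* 452, *Tgfbr3* 465, *Smad4* 479, *Tgfb1* 867, *Tgfb2* 926 and *Tgfb3* 1109. ATG triplets upstream of the start codon were counted on the sense strand, overlaps included. *Tgfb3* has 8, *Tgfbr3* 2, *Tgfbr2* and *Smad4* 1 each, and *Tgfbr1*, *Tgfb1*, *Tgfb2*, *Smad2* and *Smad3* have 0, as do 49.8% of the matched genes. The median log2 translational efficiency was 0.24 for matched genes without an upstream ATG and -0.25 for those with at least 1, a description of these libraries across genes.

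**Figure D4:**
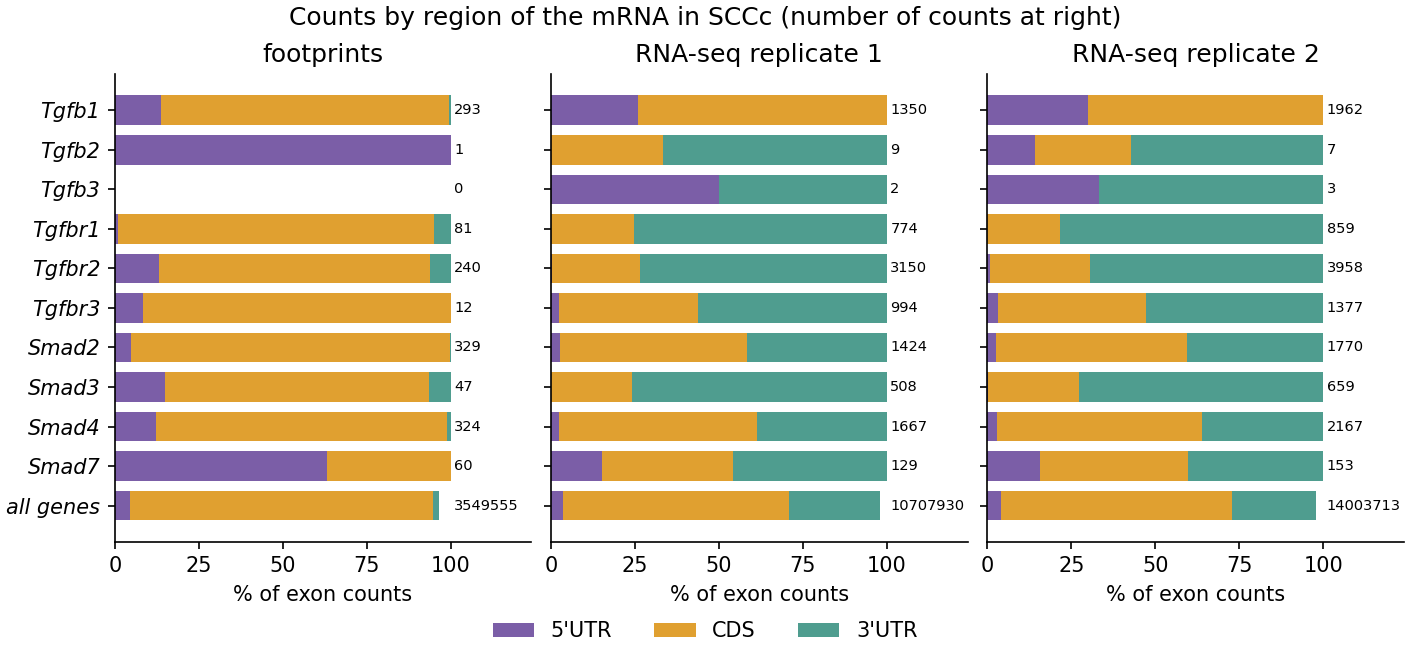
Share of the exon counts of each member on the 5′UTR, CDS and 3′UTR in the 3 libraries, with the number of counts at the right of each bar and all genes in the lowest bar, where counts of exons in no such region are left blank. *Smad7* has the largest 5′UTR share of footprints among members with more than 1 footprint (63.2%), and *Tgfbr2*, *Tgfbr1* and *Smad3* have the largest 3′UTR shares of RNA-seq reads among the passing members.

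The members differed in the density of RNA-seq reads on the 3′UTR relative to the CDS. *Tgfbr2* had 2312 and 2749 RNA-seq counts on 2686 nt of 3′UTR beside 833 and 1181 on the CDS, or 80.4 and 73.1 RPKM beside 43.8 and 47.5. The log2 ratio of CDS to 3′UTR density was -0.88 in replicate 1 and -0.62 in replicate 2, and its pooled value of -0.75 lay at percentile 2.31 of 6809 genes, whose median was 0.51 with an SD of 0.96. *Smad2* showed the opposite, with 52.9 and 51.3 RPKM on the CDS beside 8.02 and 7.44 on the 3′UTR, a pooled log2 ratio of 2.75 at percentile 96.1. These are the same members whose translational efficiency moved most when RNA-seq was counted over the CDS. Both measures use the same RNA-seq counts by region, so the match is not an independent result.

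The other members with enough reads lay between them. The log2 ratio of CDS to 3′UTR RNA-seq density was -0.27 for *Tgfbr1*, -0.09 for *Tgfbr3* and *Smad3*, 0.28 for *Smad4* and 0.24 for *Smad7*. The counted 3′UTR of *Tgfb1* is only 57 nt long and held fewer than 1 RNA-seq count in each replicate.

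Footprints on 3′UTRs were rare. *Tgfbr2* had the most with 15.1, 6.30% of its footprints on exons (interval from 3.54% to 10.1%). Its log2 ratio of 3′UTR to CDS footprint density was -4.27, with an interval from -5.14 to -3.52, at percentile 84.0 of 6828 genes. *Tgfbr1* had 4.13, *Smad4* 3.20, *Smad3* 3, *Smad2* 1.06 and *Tgfb1* 1.04 footprints there. *Tgfbr3* and *Smad7* had 0 on the 3′UTR, which by their intervals allows up to 26.5% and 5.96% of their footprints on exons.

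The other genes of the pathway were taken from 8 lists of 91 genes in all. Of these, 57 passed the filters, with 11 above 1 and 14 below -1 in log2 translational efficiency, and a median of -0.30. These counts over all lists together, 11 and 14 of 57, are near the shares of all genes (20.8% above 1 and 21.1% below -1). The single lists hold few genes each, and their counts are given as descriptions.

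Around the ligand, 6 of 12 genes of latency and activation passed, 2 above 1 and 3 below -1. *Itgb6* (2.04) and *Itgav* (1.44), whose products pair as the integrin that releases the TGF-beta of epithelia from its latent form, were the highest. *Ltbp4* (-1.98) and *Ltbp3* (-1.72), which tether latent ligand to the matrix, were the lowest. With counts not divided by length they were at -1.06 and -1.18. *Furin*, the protease that cleaves the precursor, was then the lowest at -1.28. Divided by length, *Furin* was at -1.41, and it had the highest mRNA level of the list at 46.8 RPKM. *Thbs1*, whose product thrombospondin can activate latent TGF-beta, was next in mRNA level at 35.7 RPKM and lay at 0.79, or 1.05 with RNA-seq counted over the CDS. Of 15 other ligands of the superfamily 4 passed, 1 above 1 and 1 below -1. *Inhbb* had the highest mRNA level among them at 32.3 RPKM and the lowest value at -1.40. *Bmp3* was at 1.45 but at 0.91 with RNA-seq counted over the CDS, and *Bmp7* at -0.67 but at -1.01, so both calls depend on the region. *Bmp8a* was at -0.57, and *Bmp5*, *Gdf10*, *Mstn* and *Nodal* had no count in any library. Of 7 extracellular antagonists 3 passed, 2 of them above 1. *Fst*, which encodes the activin-binding follistatin, was at 4.03 with 152 footprints beside 59.5 and 53.2 RNA-seq counts. *Nog*, which encodes the BMP antagonist noggin, was at 1.05 from 21 footprints and at 0.90 with RNA-seq counted over the CDS, and *Fstl3* was at 0.36.

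Among 14 other receptors and co-receptors 9 passed, with 0 above 1 and 2 below -1. *Bmpr1a* (23.9 RPKM) and *Acvr1* (17.9 RPKM) had the highest mRNA levels of the list, both above *Tgfbr1* and below *Tgfbr2*. *Bmpr1b* was the highest of the list in translational efficiency at 0.66, followed by *Acvr2a* and *Acvr1* at 0.08, but with counts not divided by length these were at -0.31, -0.79 and -0.02, in another order and below the median. *Acvr2b* (-1.62 from 6 footprints, but -0.69 with counts not divided by length) and *Bmpr1a* (-1.10) were the lowest, and *Tdgf1* had no count in any library. Of 4 other Smads 2 passed, *Smad1* and *Smad5* of the BMP branch, at -0.88 and -0.63, with *Smad5* at -1.97 with counts not divided by length, and *Smad9* had no count in any library. Of 20 intracellular regulators 18 passed, 2 above 1 and 4 below -1, with *Fkbp1a*, whose product binds the type I receptor, at 2.10 and 117 RPKM. With counts not divided by length *Fkbp1a* was at 1.07. *Nedd4l* at 1.05 was the other above 1, and it fell to about the median of all genes with RNA-seq counted over the CDS. *Strap* was second in mRNA level at 107 RPKM and lay at 0.75, and the lowest were the Smad corepressor *Ski* at -1.88 and the ubiquitin ligase *Smurf2* at -1.54. All 5 genes of the non-Smad branch passed and lay below 0, 3 of them below -1, where 21.1% of all genes lay. *Tab2* was lowest at -2.63, then *Traf6* at -1.54, and the highest were *Map3k7* at -0.76 and *Tab1* at -0.96. The count of 3 depends on the setting, since *Map3k7* was at -1.62 with counts not divided by length and *Tab1* at -1.03 without RNA-seq replicate 1.

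Of 14 genes known as targets of TGF-beta or BMP signalling 10 passed, 4 above 1 and 1 below -1, with a median of 0.71, where 20.8% of all genes lay above 1. *Id1* (3.56) and *Id3* (2.47) were the highest and *Tgfbi* (-2.07) the lowest. *Cdkn1a*, which encodes the cell cycle inhibitor p21, had the highest mRNA level of the list at 116 RPKM, followed by *Snai2* at 91.3 RPKM. *Snai1* had no count in any library. Without wild-type libraries these are levels in SCCc and not responses to the loss of the receptor.

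**Figure D5:**
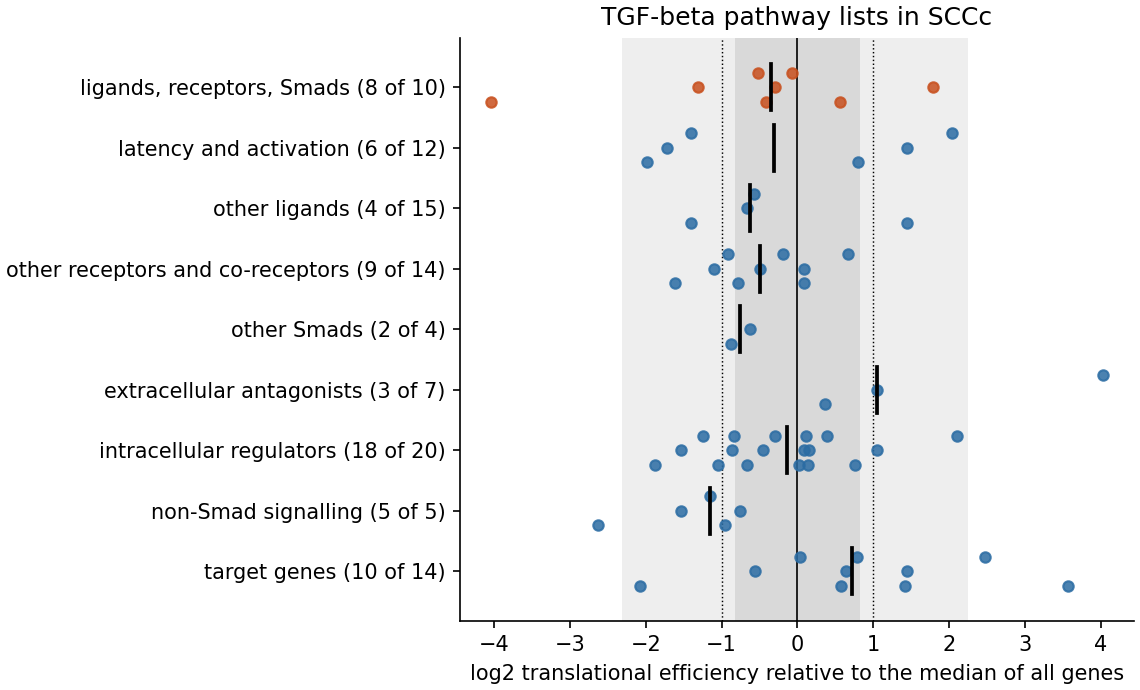
Log2 translational efficiency of the passing genes of each pathway list relative to the median of all genes, with the members in orange, the other lists in blue and the median of each list as a black bar. Grey bands are the central 90% and 50% of all passing genes, and labels give how many of the listed genes passed.

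The genes most like *Tgfbr2* were sought over 3 measures, the log2 mRNA level, the log2 footprint level on the CDS and the log2 ratio of 5′UTR to CDS footprint density, each divided by its SD over 3096 genes. The nearest were *Ccdc91*, *Atp13a3* and *Mark3*, at distances of 0.0576, 0.128 and 0.174 SD. *Ccdc91* had 63.4 RPKM of mRNA and 29.1 RPKM of footprints, beside 60.2 and 30.7 for *Tgfbr2*. *Hras*, the gene of the other modification named in the labels, had 49.7 RPKM of mRNA. Its log2 translational efficiency was 0.02, with a counting interval from -0.24 to 0.28. It was at -1.05 with RNA-seq counted over the CDS, so this value depends on the region of the RNA-seq counts. *Hras* held 245 footprints on a counted 5′UTR of 206 nt beside 128 on its CDS of 564 nt, while RNA-seq placed 19.5 and 37.2 counts on the 5′UTR and 764 and 1027 on the CDS. Its 3′UTR of 1417 nt held 257 and 381 RNA-seq counts, so the RNA-seq density was lower there than on the CDS. Counts per gene show neither the G12V change nor whether it lies in the gene itself or in an added copy. The *Hras* values may thus mix more than 1 source, which was not tested.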

How the data were processed

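The submitters deposited 1 ribosome profiling and 2 RNA-seq libraries of SCCc as files of 1 library each. The authors trimmed reads with Trim Galore, used Bowtie2 2.4.1 to discard footprint reads of ribosomal, mitochondrial or tRNA origin, aligned the rest to GRCm38 with STAR 2.6.1 and counted each gene with Plastid. The deposited counts are estimated counts per exon, CDS, 5′UTR and 3′UTR that need not be whole and are not normalised. The deposited RPKM values rest on larger library totals (202893242, 50733402 and 65593171) than the exon counts, and were used only for an alternative filter. The deposited lengths of each region were the same in all files. The annotation and strand setting used for counting are not given in the sources used here.

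RPKM was recomputed with the library's total of exon counts. Translational efficiency carried no pseudocount. Genes were kept with more than 1 RPKM in each RNA-seq library, a base mean over 25 and footprints on a counted CDS. The base mean used unrounded counts divided by size factors of DESeq2 1.42.0, which were estimated on rounded counts. Intervals are exact Poisson for levels and exact Clopper-Pearson for shares and ratios, at 95%, on counts rounded to whole numbers. For the ratio of CDS to 3′UTR RNA-seq density, genes had at least 30 counts on both regions in each replicate and at least 200 nt of each. For 3′UTR footprints, genes had at least 200 nt of 3′UTR and 30 footprints on the CDS. Differences between the RNA-seq replicates exceeded sampling noise (chi-square of 7.52 per degree of freedom over 9863 genes) so levels are given for each or with their SD, while translational efficiency uses their mean and the CDS to 3′UTR ratio is also given pooled. With 1 ribosome profiling library and 1 condition no test was run and no p-value is given, since the interaction test of the study needs both conditions. The long-read libraries and wild-type libraries were not analysed here.

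Gene positions, 5′UTRs and start sites came from GENCODE M21, using for each gene the coding transcript with the longest CDS and an annotated start codon. Genes named are all members, *Hras*, the 3 genes most like *Tgfbr2* and, of each pathway list, the 2 highest and 2 lowest in translational efficiency, the 2 highest in mRNA level and those with no count. Marker genes were named from the marker lists after their values were seen. The members and lists were chosen with earlier results of these data known. Alternatives were each RNA-seq replicate left out, RNA-seq counted over the CDS, counts not divided by length, a pseudocount of 1 RPKM, 3 other filters, DESeq2 size factors and TMM factors of edgeR 4.0.16. The calculation was tested on simulated counts. Python 3.11.15, numpy 2.4.6, pandas 2.3.3, scipy 1.17.1, matplotlib 3.10.9 and R 4.3.3 were used.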

Additional observations from a re-analysis of the deposited data

How the results depend on the processing

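The median log2 translational efficiency of the 8 passing members was -0.36. It was -0.27 with RNA-seq counted over the CDS, -0.64 with counts not divided by length, and -0.75 with at least 100 counts in every library, which kept 4 members. Leaving out an RNA-seq replicate gave -0.40 to -0.32. The number of members above 1 fell from 1 to 0 with RNA-seq counted over the CDS and with counts not divided by length. The number below -1 fell from 2 to 1 with RNA-seq counted over the CDS and with the filter of 100 counts, which *Tgfbr3* does not pass, and was 3 with counts not divided by length. The median moved by no more than the spread between RNA-seq replicates, and both counts kept their values, with a pseudocount of 1 RPKM, a count above 0 in every library, deposited RPKM above 1 (7 members, without *Smad7*), DESeq2 size factors and edgeR TMM factors. The number of members whose footprints were denser on the 5′UTR than on their CDS was 1 in each setting tried.

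Over all settings, *Smad2* ranged from 0.11 to 1.81, *Tgfbr2* from -1.73 to -0.62, *Tgfbr3* from -4.28 to -3.23, *Smad3* from -1.51 to -0.26, *Tgfbr1* from -0.97 to 0.42, *Smad7* from -0.22 to 0.62, *Tgfb1* from -0.80 to -0.24 and *Smad4* from -0.69 to -0.27. *Nedd4l*, an intracellular regulator, turned from 1.05 to -0.0302 with RNA-seq counted over the CDS. That setting also took *Bmp3* (0.91) and *Nog* (0.90) below 1, *Thbs1* (1.05) above 1, and *Bmp7* (-1.01) and *Hras* (-1.05) below -1. With counts not divided by length, *Hras* was at -0.97, *Nog* at 0.60, *Nedd4l* at 0.40, *Thbs1* at 1.09 and *Acvr2b* at -0.69, and *Smad3* (-1.51), *Smad5* (-1.97), *Map3k7* (-1.62) and *Bmp7* (-1.17) lay below -1. In this setting *Inhbb* (-2.17), *Bmpr1a* (-1.87) and *Traf6* (-2.30) lay further below -1. *Fkbp1a* (1.07), *Ltbp4* (-1.06), *Ltbp3* (-1.18) and *Tgfbi* (-1.45) moved closer to the limits but stayed past them. The sign turned in this setting for *Bmpr1b* (-0.31), *Acvr2a* (-0.79), *Acvr1* (-0.02), *Cdkn1a* (-0.49) and *Smad7* (-0.22). It turned for *Acvr1* (-0.31) and *Hras* (-0.37) with the filter of 100 counts, for *Acvr2a* (-0.11) without RNA-seq replicate 2, for *Hras* (-0.02) without replicate 1, and for *Tgfbr1* (0.42 over the CDS and 0.04 without replicate 1), which lies near 0. A pseudocount took *Nog* to 0.85 and *Nedd4l* to 0.94, and the filter of 100 counts took *Nedd4l* to 0.66. Without RNA-seq replicate 1, *Tab1* was at -1.03. The cause was not tested. No paired analysis was possible because only 1 condition was used and no test was run. Depth limits *Tgfbr3*, *Smad7* and *Smad3*, whose values rest on 11, 22 and 37 footprints.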
